A study of Mus musculus with 30 samples.

Results

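The genes described here encode the standing subunits of the proteasome together with its assembly chaperones and activators. They were taken by symbol: every probe set of the array with exactly 1 annotated gene whose symbol began with Psma, Psmb, Psmc, Psmd or Psme, leaving out Psmb8, Psmb9 and Psmb10, the subunits exchanged under interferon. The rule gave 50 probe sets of 39 genes, out of 10833 probe sets of 8251 genes with 1 gene each. A probe set is a group of short probes read as 1 signal. A filter on low signals kept 42 of the 50 probe sets, standing for 36 genes: 7 genes of the 20S alpha ring, 7 of the 20S beta ring on 9 probe sets, 5 ATPases of the 19S cap on 7, 10 other 19S subunits on 12, 3 assembly chaperones of the 19S cap and 3 activators of the 20S core, with Psme3ip1. Of these, 39 probe sets lay above the median of all signals in all 30 arrays and 0 reached the low floor, so that these genes were well expressed throughout. The 8 probe sets left out were the only ones of Psmc4, Psmd2 and Psmc3ip, and extra ones of Psmb1, Psmb4, Psmc5 and Psme1, and give no evidence on those genes. Psme2, the partner of Psme1, was not a member, since its probe sets also list Psme2b. The symbol rule also caught genes that are not proteasome subunits: Psme3ip1 and Psmc3ip encode proteins named after a subunit they bind. All 50 probe sets matched genes of the RefSeq GRCm38.p6 assembly, on 15 chromosomes.

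The proteasome is the cell's main machine for breaking down proteins tagged with ubiquitin. Its 20S core is a barrel of alpha rings, which gate the entrance, and beta rings, of which Psmb5, Psmb6 and Psmb7 carry the cutting sites. The 19S cap binds ubiquitin, removes it and unfolds the substrate with a ring of ATPases, and activators such as Psme1, Psme3 and Psme4 can bind the core in place of the cap. Interferon makes cells replace the cutting subunits by Psmb8, Psmb9 and Psmb10 and raise Psme1. In many cells the transcription factors Nfe2l1 and Nfe2l2 are known to raise proteasome genes when proteolysis or redox balance is disturbed. In the olfactory epithelium, sensory neurons are replaced throughout life, and cutting off their target by removing the olfactory bulb makes mature neurons die within days.

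The arrays were Affymetrix MG-U74Av2 arrays of microdissected olfactory epithelium from 6-week-old mice. By their labels the mice were wild type or carried a mutation of SR-A, the macrophage scavenger receptor encoded by Msr1, and were sampled at 0, 2, 8, 16 and 48 h after removal of both olfactory bulbs, with 3 arrays in each of the 10 groups. The labels give neither the nature of the 0 h baseline, unoperated or freshly operated, nor a sham-operated group, so an effect of surgery in general and one of losing the target cannot be told apart. The design text speaks of 3 mice of each genotype without tying arrays to mice, so a p-value here covers only the scatter of the arrays, which may be technical, and their number limits the precision. Msr1 transcript was higher in the mutant-labelled arrays, the opposite of a loss, and whether its probes lie in the deleted part is not known here. Every direction between genotypes therefore rests on the labels. RNA quality controls differed in the 3 mutant-labelled arrays of 2 h: their Gapdh 3′ minus 5′ control differences were 5.59, 0.15 and 1.27 on the log2 scale, against -0.31 to -0.13 in the other 27 arrays. Their actin differences were 2.27, 1.02 and 0.43, against 0.45 to 1.11, so both controls were raised in replicate 1 and Gapdh alone in replicates 2 and 3. All 3 were kept out of the fits except where the comparison needs them. Omp, the marker of mature olfactory neurons, had a signal of 16299.5 or more in all 27 other arrays and of 128.5, 16964.3 and 3389.5 in those 3. In whole tissue, fewer cells of a type and less RNA per cell cannot be told apart.

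Proteasome genes rose by 16 h after bulbectomy when the 2 genotypes were averaged. In this average 15 of the 42 probe sets, each of a different gene, passed an adjusted p of 0.05 and all 15 rose, by 1.15-fold to 1.36-fold. Of all 6968 tested probe sets 12.3% passed in this comparison, and 6.50% passed upwards. The median log2 difference from 0 h was 0.19 over the 42 probe sets and -0.01 over all tested ones, and 36 of the 42 were above 0. Among the 1241 probe sets of similar brightness, with mean signals from 3277 to 8107, the median was 0.00 and 7.33% rose. Changes here are log2 differences of group means ± the standard error, with 3 arrays per group, tested with limma and adjusted over all 6968 probe sets.

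**Figure D1:**
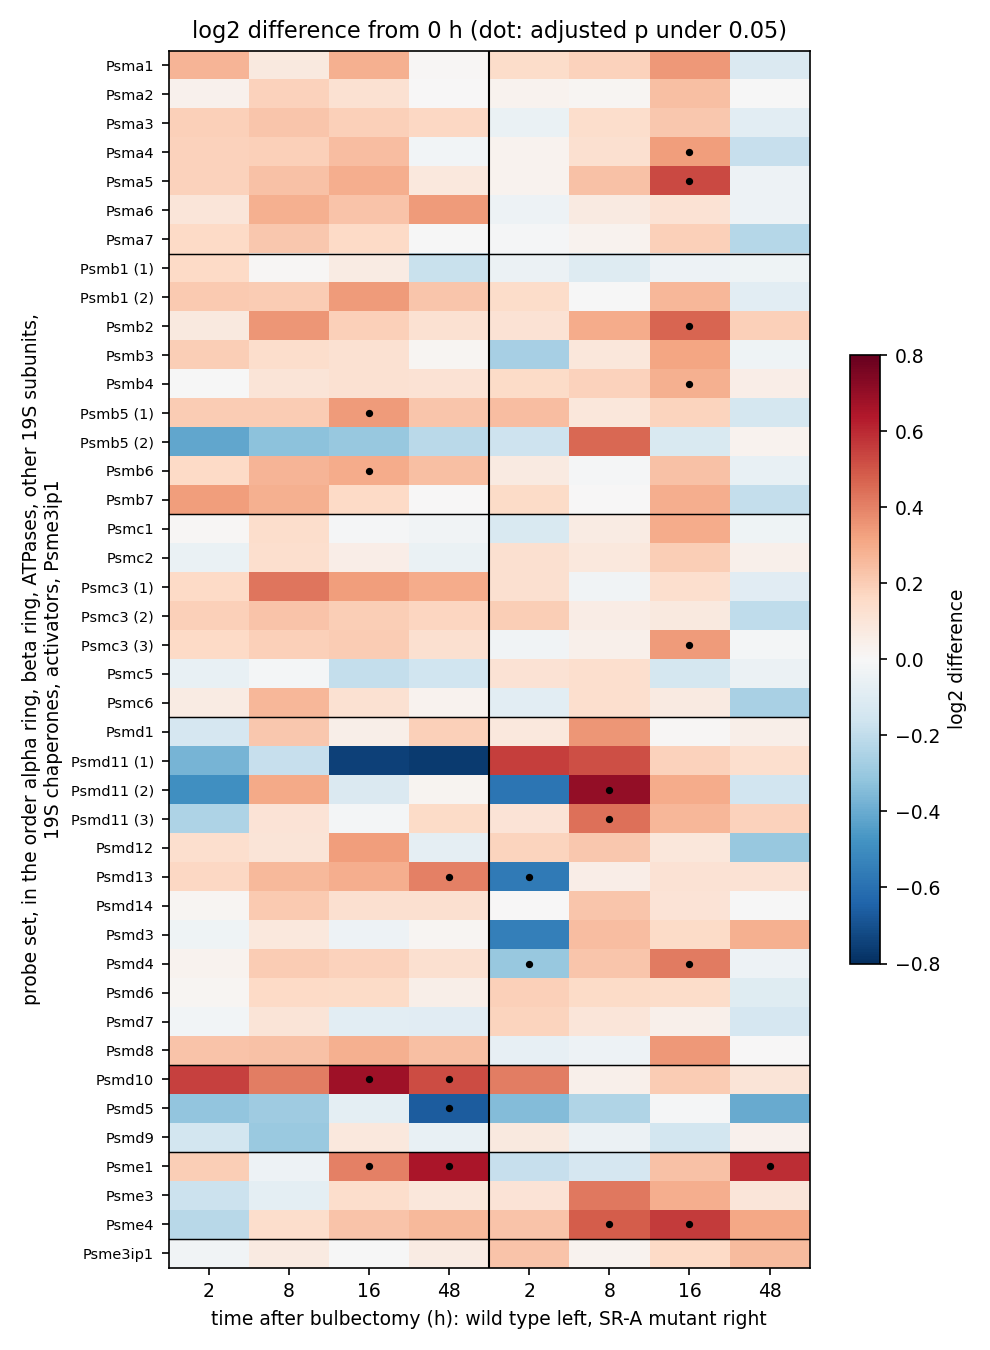
Log2 difference from 0 h of each tested probe set (lines, ordered by role) at 2, 8, 16 and 48 h in wild-type-labelled (left) and mutant-labelled (right) arrays, with dots where the adjusted p was under 0.05; numbers in brackets tell apart several probe sets of a gene. The 16 h columns are mostly red, with 4 dots on the left and 7 on the right, and in the 48 h columns Psme1 is the reddest on both sides.

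In the alpha ring, 4 of 7 genes rose at 16 h and all 7 were above 0. Psma5, on chromosome 3 (GRCm38.p6, 108256926 to 108279952), changed most. Its signal was 4858, 5014 and 4916 in the wild-type-labelled 0 h arrays and 5864, 6184 and 6075 at 16 h. In the mutant-labelled arrays it was 4969.7, 5710 and 5401 at 0 h and 6864, 8688 and 7736 at 16 h. All 16 h arrays lay above all 0 h arrays of their genotype, and the difference over both was 0.41 ± 0.07 (adjusted p = 0.000655), or 1.33-fold. Psma4 was 7529.6, 7139 and 6681 at 0 h and 8729, 8548 and 8029.9 at 16 h in wild-type-labelled arrays. The mutant-labelled arrays read 7902, 8759.9 and 7989 at 0 h and 9334, 10674 and 11158 at 16 h. Its groups did not overlap either, and it rose by 0.29 ± 0.06 (adjusted p = 0.00551). Psma1 rose by 0.32 ± 0.08 (adjusted p = 0.00999) and Psma3 by 0.20 ± 0.06 (adjusted p = 0.0223). The Psma3 call was lost under quantile normalization (0.12, adjusted p = 0.145), and its signal lay between 18304 and 27923. Psma2, Psma6 and Psma7 gave 0.18, 0.17 and 0.17 and did not pass.

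In the beta ring, 5 of 9 probe sets rose at 16 h, including the cutting subunits Psmb5 and Psmb6. Psmb5, the subunit with chymotrypsin-like activity and the target of bortezomib, lies on chromosome 14 (54614120 to 54617995). Its main probe set read 8035, 8904 and 8799 at 0 h and 11049, 10909.5 and 10639 at 16 h in wild-type-labelled arrays. The mutant-labelled arrays gave 8399.6, 8537 and 8985 at 0 h and 9454, 10022 and 9906 at 16 h. Neither genotype's groups overlapped, and the mean difference was 0.26 ± 0.06 (adjusted p = 0.00775). The other Psmb5 probe set was dim, above the median signal in 10 of 30 arrays, and went the other way without passing (-0.21 ± 0.13, adjusted p = 0.294). Psmb6, with caspase-like activity, rose by 0.27 ± 0.06 (adjusted p = 0.00701), from 6711, 6541 and 6419 to 8179, 8415 and 7607 in wild-type-labelled arrays. In mutant-labelled arrays it went from 7350.5, 7009 and 8119 to 8373, 8961 and 9096, again without overlap. Psmb7, with trypsin-like activity, missed the threshold at 0.22 ± 0.07 (adjusted p = 0.0531).

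Of the beta subunits without a cutting site, Psmb2 rose most, by 0.33 ± 0.07 (adjusted p = 0.00255). It read 4383, 5087 and 4589.6 at 0 h and 5457, 5599 and 4989.9 at 16 h in wild-type-labelled arrays, which overlapped. The mutant-labelled arrays gave 4997, 5392 and 4806 at 0 h and 6532, 7348 and 7095 at 16 h, which did not. Psmb1 rose by 0.30 ± 0.08 on its brighter probe set (adjusted p = 0.0163) and gave 0.01 ± 0.07 on the other, so its rise rests on 1 of 2 probe sets. Psmb4 rose by 0.20 ± 0.06 (adjusted p = 0.0272), the least secure call, which held in 10 of 18 alternative analyses. Psmb3 gave 0.22 ± 0.08 (adjusted p = 0.093).

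**Figure D2:**
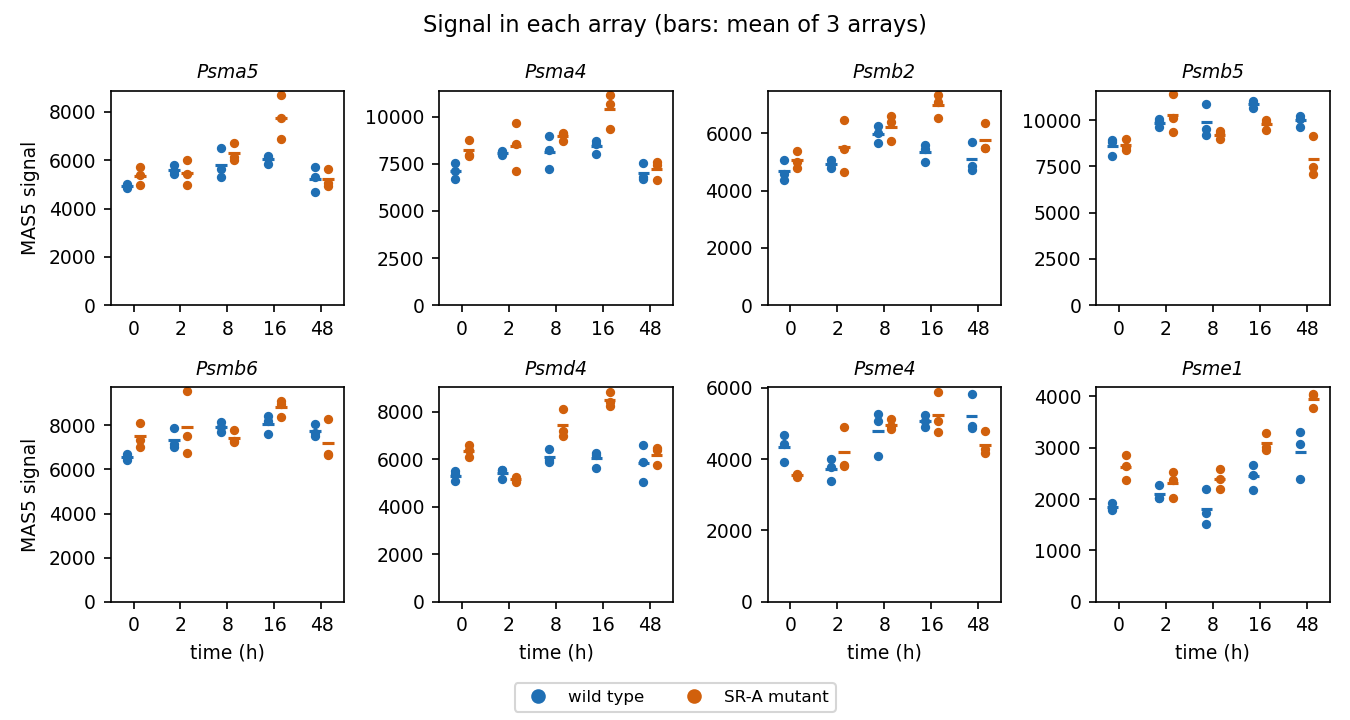
MAS5 signal of 8 member genes in each array at 0, 2, 8, 16 and 48 h (points; bars mark the mean of 3 arrays), with axes from 0. The mean was highest at 16 h in both genotypes for Psma5, Psma4 and Psmb6. For Psmb2 and Psmd4 this held in mutant-labelled arrays only, and for Psmb5 in wild-type-labelled arrays only. Psme1 was highest at 48 h in both.

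The 19S cap moved less than the core at 16 h. Of 7 ATPase probe sets 1 rose, and of 12 probe sets of other 19S subunits 2 rose, against 9 of 16 in the core rings; whether cap and core differ was not tested. Psmc3, an ATPase, rose on its brightest probe set (0.27 ± 0.07, adjusted p = 0.0117), while its other probe sets gave 0.14 and 0.23 without passing. Psmc1 gave 0.14 ± 0.08 (adjusted p = 0.252). Psmd4, the cap's ubiquitin receptor, rose by 0.30 ± 0.06 (adjusted p = 0.00472). Its signal went from 5372, 5064.5 and 5485 to 6265, 6173 and 5648 in wild-type-labelled arrays, without overlap. In mutant-labelled arrays it went from 6084, 6606 and 6365 to 8227, 8839.5 and 8386, also without overlap. Psmd8, of the lid, rose by 0.32 ± 0.08 (adjusted p = 0.0161). Psmd14, the deubiquitinating subunit, gave 0.12 ± 0.08 (adjusted p = 0.36).

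Among activators and chaperones the members parted. Psme4, a large single-chain activator, rose by 0.39 ± 0.07 (adjusted p = 0.00183). In mutant-labelled arrays it went from 3561.5, 3582 and 3493 at 0 h to 4767, 5893 and 5062 at 16 h, and in wild-type-labelled arrays from 3923.5, 4432 and 4667 to 5076, 4904 and 5231, each without overlap. Psme1, the interferon-inducible activator, rose by 0.32 ± 0.09 (adjusted p = 0.0242). Psme3, a nuclear activator, gave 0.21 ± 0.10 (adjusted p = 0.157). Of the chaperones that assemble the 19S cap, Psmd10 rose by 0.44 ± 0.11 (adjusted p = 0.00989), the largest change of the 15. It was dim, and its groups were clear only in wild-type-labelled arrays, with 435, 592 and 513 at 0 h and 916, 737 and 807 at 16 h. Mutant-labelled arrays gave 509, 619 and 692 at 0 h and 731, 712 and 639 at 16 h, which overlapped. The chaperones Psmd5 and Psmd9 gave -0.04 and -0.03.

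The upstream sequences of the members that rose together are given next, since several factors known to act on proteasome genes bind short motifs there. RefSeq promoters (GRCm38.p6, 250 bases before to 50 after the start the promoter table gives) were at hand for 33 of the 39 genes. The motif TGACNNNGC, the core of the antioxidant response element bound by Nfe2l2 and Nfe2l1, was searched on both strands. It was found in 6 of 33 members (18.2%) and in 14% of all 27025 promoters. It lay in 3 of 12 genes that rose at 16 h and in 3 of 18 tested genes that did not: Psmb5, Psmb6 and Psme4 among the first, Psmd9, Psmd12 and Psmc6 among the second. The CCAAT box, letters CCAAT on both strands, was in 42.4% of members and 41.1% of all promoters. It lay in 4 of 12 genes that rose at 16 h and in 9 of 18 tested genes that did not. The 2 motifs were searched separately and a window could hold both. The lines below show 80 bases before to 10 after the start on the gene's strand, with the motif in capitals, for the 3 that rose and for Psmd9 as one that did not; in Psme4 the capitals read the motif on the opposite strand.
Psmb5: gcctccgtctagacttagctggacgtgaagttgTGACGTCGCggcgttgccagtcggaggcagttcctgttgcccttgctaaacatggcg
Psmb6: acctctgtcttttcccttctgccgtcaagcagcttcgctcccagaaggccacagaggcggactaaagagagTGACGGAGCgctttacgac
Psme4: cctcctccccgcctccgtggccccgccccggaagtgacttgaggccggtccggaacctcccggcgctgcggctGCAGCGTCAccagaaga
Psmd9: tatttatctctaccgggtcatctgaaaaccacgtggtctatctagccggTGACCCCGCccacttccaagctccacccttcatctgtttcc
The regions are chr14:54617986-54618075 (minus strand) for Psmb5, chr11:70525277-70525366 (plus) for Psmb6, chr11:30771695-30771784 (plus) for Psme4 and chr5:123228110-123228199 (plus) for Psmd9. The motif stood 47, 9 and 7 bases before the start in Psmb5, Psmb6 and Psme4 and 31 in Psmd9, counted from the promoter table's start. For Psmb6 that start lies 33 bases inside the gene as annotated in RefSeq, so its motif lies within the annotated gene; in the other 3 the starts coincide. A match in these letters is a description only, and its share among the members was close to that of all promoters.

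The members were already shifted at 8 h, though few passed. Over both genotypes 38 of 42 probe sets lay above 0 h, with a median of 0.15 against -0.01 over all tested ones, and 4 rose, where 2.99% of all probe sets passed and 1.56% rose. Psmb2 rose by 0.33 ± 0.07 (adjusted p = 0.00598) and Psme4 by 0.31 ± 0.07 (adjusted p = 0.0237). Psmd11, a lid subunit that joins the cap to the core, rose on 2 of its 3 probe sets, by 0.50 ± 0.10 (adjusted p = 0.00775) and 0.28 ± 0.07 (adjusted p = 0.0427). Its brightest probe set read 7875, 7439 and 7997 at 0 h and 8694, 8385.5 and 8047.5 at 8 h in wild-type-labelled arrays, and 6917, 6269 and 6867 at 0 h and 9543, 8732 and 8967 at 8 h in mutant-labelled ones. The groups did not overlap, and the gap was wider in the mutant-labelled arrays. Psmb5, Psmb6 and Psmb7 gave 0.15, 0.13 and 0.15, and Psma7, Psmc1, Psmd14 and Psme3 gave 0.12, 0.10, 0.21 and 0.17, none passing. Psme1 gave -0.09 ± 0.09. Without mutant-labelled 0 h replicate 3, wild-type-labelled 0 h replicate 1, mutant-labelled 8 h replicate 2 or wild-type-labelled 8 h replicate 1 or 2, the count was 2. The 8, 16 and 48 h comparisons share their 0 h arrays, so their values are set side by side and are not independent.

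At 2 h no member passed in wild-type-labelled arrays, where limma gave 9 at an unadjusted p under 0.05 and 1.89% of all probe sets passed; without 0 h replicate 2, 1 passed. Psmb7 had the highest difference in the beta ring, 0.34 ± 0.11 (adjusted p = 0.0839), and Psmd10 gave 0.55 ± 0.15 (adjusted p = 0.0573). In the mutant-labelled 2 h arrays, 2 members fell and 0 rose, with 17.7% of all probe sets passing and 10.3% falling. Psmd13, a lid subunit, fell by 0.57 ± 0.15 (adjusted p = 0.0121) and Psmd4 by 0.30 ± 0.09 (adjusted p = 0.0228). These arrays carry the RNA quality difference given above, whose part in the result was not tested. Without 2 h replicate 1, which had the highest Gapdh difference, or without 0 h replicate 2, no member passed, with 3 and 5 at an unadjusted p under 0.05 in limma, and without 2 h replicate 2 the count was 5.

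By 48 h most members were back near their 0 h level when the 2 genotypes were averaged. Over both genotypes the median was 0.03, 22 of 42 probe sets lay above 0, and 3 rose and 1 fell, against 24.7% of all probe sets passing. By genotype, the median was 0.07 in wild-type-labelled arrays, with 30 of 42 above 0, and -0.04 in mutant-labelled ones, with 16 above 0. The core rings had no member past the threshold: Psma7 gave -0.11, Psmb5 0.04, Psmb6 0.09 and Psmb7 -0.09, and Psmc1, Psmd14 and Psme3 gave -0.03, 0.06 and 0.09. In wild-type-labelled arrays the 48 h signals of Psmb6 and of the main Psmb5 probe set still lay above all 0 h ones. In mutant-labelled arrays they overlapped. The members that passed were Psme1 (0.62 ± 0.09, adjusted p = 3.26e-05), Psme4 (0.29 ± 0.07, adjusted p = 0.00732) and Psmd10 (0.31 ± 0.11, adjusted p = 0.0348) upwards, and the chaperone Psmd5 downwards (-0.53 ± 0.13, adjusted p = 0.00522). Psmd5 read 2918, 3033 and 3209 at 0 h and 1648, 2174 and 1991 at 48 h in wild-type-labelled arrays. In mutant-labelled arrays it read 2854, 3537 and 3076 at 0 h and 2632, 1726.5 and 2959 at 48 h. The first did not overlap and the second did. Psmd10 stood 0.52 above 0 h in wild-type-labelled arrays but gave 0.10 in mutant-labelled ones. The latter read 509, 619 and 692 at 0 h and 807, 583 and 571 at 48 h, which overlapped.

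Set directly against 16 h, the 48 h arrays were lower for 11 members and higher for Psme1 alone (14.7% of all probe sets passed, 8.04% downwards). This comparison was added after the data were seen and shares its 16 h arrays with the 16 h result above. The alpha ring fell in 4 of 7 cases, with Psma4 at -0.40 ± 0.06 (adjusted p = 0.000343), Psma5 at -0.39 ± 0.07 (adjusted p = 0.000762), Psma1 at -0.37 and Psma7 at -0.29. In the beta ring Psmb7 (-0.32 ± 0.07, adjusted p = 0.00653), Psmb1 and Psmb5 fell, and Psmb6 gave -0.18 ± 0.06 (adjusted p = 0.0537). Psmc3, Psmd4 and the lid subunit Psmd12 (-0.40 ± 0.10) fell in the cap, as did the chaperone Psmd5 (-0.49 ± 0.13), while Psmc1 (-0.17) and Psmd14 (-0.06) did not pass. Psme1 rose by 0.30 ± 0.09 (adjusted p = 0.0265) and Psme3 gave -0.12. Without mutant-labelled 48 h replicate 1, 21 members passed. The share of all probe sets passing in that fit is not given here, so the count cannot be set against it.

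The same course showed in the medians of single arrays. The median over the 42 probe sets, relative to the same genotype's 0 h mean, was 0.16, 0.24 and 0.12 in the wild-type-labelled 8 h arrays and 0.20, 0.18 and 0.10 at 16 h. In the mutant-labelled arrays it was 0.17, 0.07 and 0.13 at 8 h and 0.16, 0.24 and 0.26 at 16 h. All 12 arrays at 8 and 16 h were thus above 0, and 11 of the 12 lay above the highest 0 h array, 0.09 in mutant-labelled replicate 2. At 48 h the wild-type-labelled arrays gave 0.11, 0.01 and 0.10, while the mutant-labelled ones gave 0.12, -0.10 and -0.09. The median over all tested probe sets stayed between -0.03 and 0.04 in every array. Replicate 1 of the mutant-labelled 48 h arrays thus stood apart from the other two of its group.

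**Figure D3:**
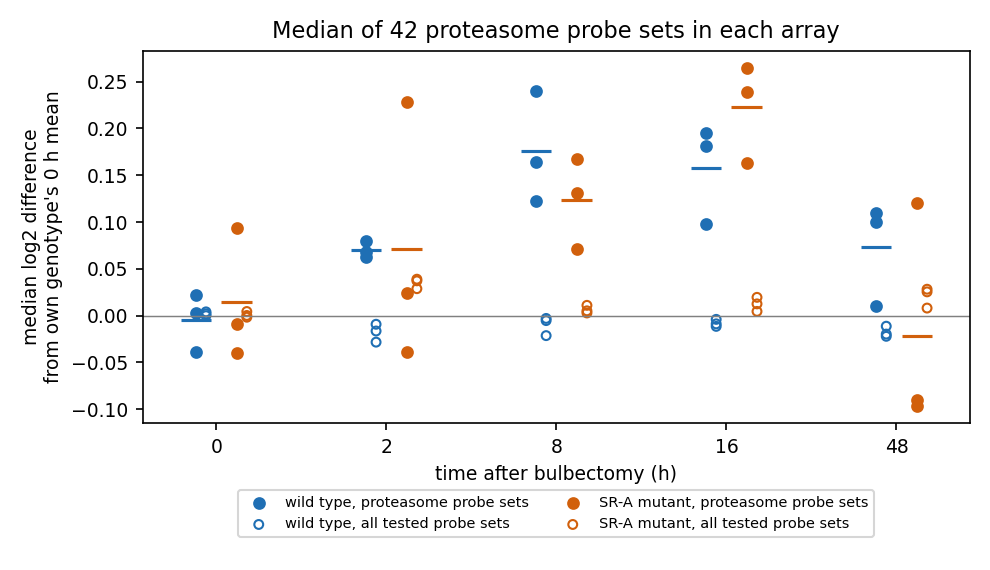
Median log2 difference from the 0 h mean of the same genotype over the 42 member probe sets (filled points, 1 per array; bars mark the mean of 3 arrays) and over all tested probe sets (open points), by time after bulbectomy. Member medians of all 8 h and 16 h arrays lie above 0, from 0.07 to 0.26, and those of the mutant-labelled 48 h arrays fall to -0.10 in 2 of 3 arrays.

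Taken singly, the genotypes gave fewer calls. In wild-type-labelled arrays 4 members rose at 16 h, against 9.59% of all probe sets passing and 4.94% rising: Psmd10 (0.68 ± 0.15, adjusted p = 0.00816), Psme1 (0.40 ± 0.13, adjusted p = 0.0474), Psmb5 (0.34 ± 0.09, adjusted p = 0.0175) and Psmb6 (0.30 ± 0.09, adjusted p = 0.0323). In mutant-labelled arrays 7 rose, against 5.18% passing and 2.64% rising: Psme4 (0.56 ± 0.11, adjusted p = 0.00423), Psma5 (0.53 ± 0.10, adjusted p = 0.00358), Psmb2 (0.47 ± 0.09, adjusted p = 0.00577), Psmd4 (0.42 ± 0.09, adjusted p = 0.0111), Psma4, Psmc3 and Psmb4. The 2 sets, from separate arrays, shared 0 of 4 and 0 of 7 genes, and the test of a genotype difference in change, given further on, passed for none of these genes. At 16 h itself Psma5, Psmb2, Psmd4, Psma4 and Psmc3 differed in level between the genotypes. By the plain count of members whose 3 arrays all lay above the 3 arrays at 0 h, there were 22 of 42 in wild-type-labelled arrays and 18 in mutant-labelled ones, against 17.6% and 13.8% of all probe sets. The same counts were 18 and 3 at 2 h (16.0% and 16.5%), 19 and 13 at 8 h (5.44% and 12.3%) and 12 and 6 at 48 h (18.3% and 13.9%). Single arrays moved these small counts: the wild-type-labelled 16 h count was 0 without 0 h replicate 1 (limma, 10 at an unadjusted p under 0.05), 2 without 0 h replicate 2 or 3 and 1 without 16 h replicate 1. The mutant-labelled 16 h count was 4 without 0 h replicate 1 or 3 or 16 h replicate 3.

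At 8 h alone, 0 members passed in wild-type-labelled arrays (limma, 14 at an unadjusted p under 0.05; 0.244% of all probe sets passed). In mutant-labelled arrays Psme4 (0.48 ± 0.11) and both brighter Psmd11 probe sets (0.70 ± 0.15 and 0.44 ± 0.10) rose, where 2.54% of all passed and 1.71% rose. That count was 0 without 0 h replicate 2 (limma, 8 at an unadjusted p under 0.05) and 1 without 0 h replicate 3 or 8 h replicate 2 or 3. At 48 h, 3 members rose and 1 fell in wild-type-labelled arrays (18.8% of all): Psme1 (0.65 ± 0.13), Psmd10 (0.52 ± 0.15) and Psmd13 (0.40 ± 0.14) upwards and Psmd5 (-0.66 ± 0.19) downwards. The count was 2 without 0 h replicate 1 or 3 or 48 h replicate 2, and 1 without 48 h replicate 1. In mutant-labelled arrays Psme1 alone passed at 48 h (0.59 ± 0.13, adjusted p = 0.00406; 13.2% of all passed and 6.46% rose). Without 48 h replicate 1, the array that stood apart, 5 passed, and without 0 h replicate 3, 2 did. The shares of all probe sets in these fits are not given here.

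Psme1 was highest at 48 h, and its values are given beside those of the subunits exchanged under interferon. Psme1 read 1921.5, 1816 and 1781 at 0 h, 2667, 2180.5 and 2470.2 at 16 h and 3303, 3070.2 and 2381 at 48 h in wild-type-labelled arrays. In mutant-labelled arrays it read 2373, 2859 and 2644 at 0 h, 3286, 3019 and 2950.4 at 16 h and 4017, 4051 and 3769.7 at 48 h. No 16 h or 48 h array overlapped the 0 h arrays of its genotype, and 48 h was 1.54-fold above 0 h over both. Over both genotypes Psmb10, which replaces Psmb7, rose by 0.33 ± 0.09 at 16 h (adjusted p = 0.0174). At 48 h it stood 0.45 ± 0.09 above 0 h (adjusted p = 0.000732). Psmb8, which replaces Psmb5, rose in wild-type-labelled arrays, from 749, 559 and 596 at 0 h to 1329.8, 1008 and 1046 at 16 h (0.83 ± 0.16, adjusted p = 0.00447) and by 0.85 ± 0.16 at 48 h (adjusted p = 0.000921). In mutant-labelled arrays Psmb8 gave -0.06 and 0.17 at those times, and the test of the genotype difference in its changes missed the threshold (adjusted p = 0.0583). Psmb9, which replaces Psmb6, was too dim to be tested, at 250.4 to 375 in wild-type-labelled 0 h arrays and 455 to 537 at 16 h. In mutant-labelled arrays it read 377.3, 336.1 and 474.4 at 0 h and 391.3, 266.5 and 175 at 16 h, which overlapped. The constitutive counterparts Psmb5 and Psmb6 gave -0.22 and -0.18 from 16 h to 48 h over both genotypes, Psmb5 beyond the threshold.

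**Figure D4:**
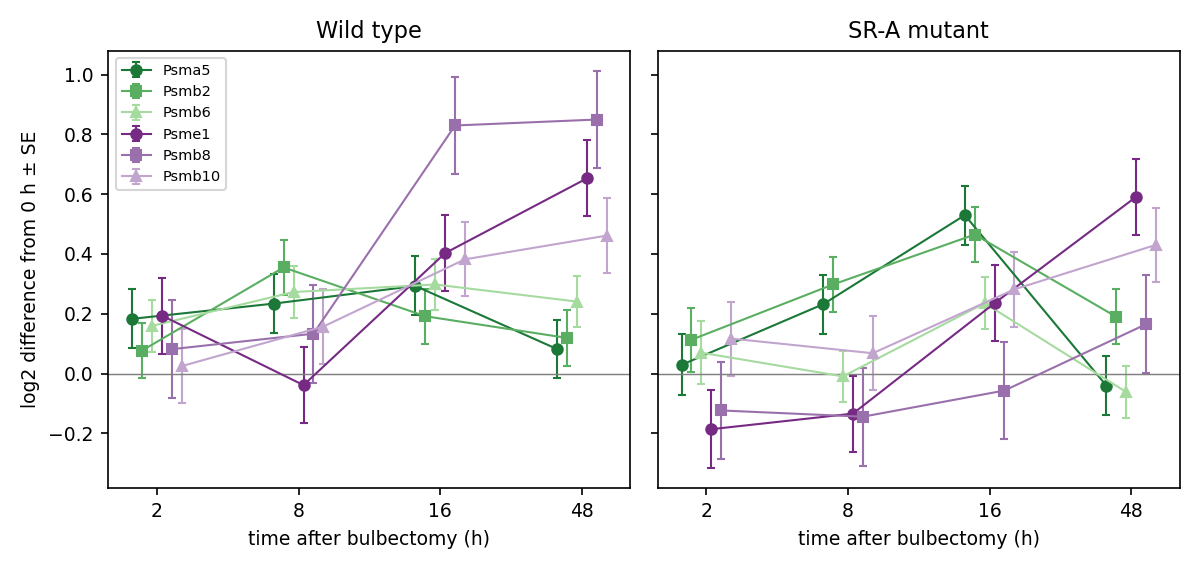
Log2 difference from 0 h ± standard error at 2, 8, 16 and 48 h of 3 constitutive core subunits (green) and of Psme1, Psmb8 and Psmb10 (purple), in wild-type-labelled (left) and mutant-labelled (right) arrays. Psme1 reaches 0.65 and 0.59 at 48 h, where Psma5 is back at 0.08 and -0.04, and Psmb8 reaches 0.85 on the left and 0.17 on the right.

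Markers of several cell types moved, few of them at 16 h and more at 48 h. Of 10 tested macrophage and monocyte markers 2 rose at 16 h and 7 at 48 h over both genotypes. The summed signal of the 14 on the array ran from 20321.5 to 24143.9 at 0 h and 27026.3 to 35328.8 at 16 h in wild-type-labelled arrays, and from 23783.9 to 31139.4 and 25363.6 to 28869 in mutant-labelled ones, with Fcer1g at the floor in all of these and Aif1 in the wild-type-labelled 0 h and mutant-labelled 16 h arrays. Cd68, a macrophage lysosomal protein, gave 0.05 ± 0.11 at 16 h (adjusted p = 0.793) and 0.73 ± 0.11 at 48 h. Of 5 mature neuron markers 0 passed at 16 h in limma (1, Ebf2, at an unadjusted p under 0.05) and all 5 fell at 48 h, Omp by 0.69 ± 0.08. Their summed signal at 0 and 16 h was 62573.6 to 73209.1 and 52123.4 to 57969 in wild-type-labelled arrays, and 63147.2 to 71954.8 and 72915.7 to 74655 in mutant-labelled ones. The 3 tested lymphocyte and plasma cell markers, Ighm, Igha and Jchain, all rose at 16 h in wild-type-labelled arrays (median 2.81) and had a median of -0.80 in mutant-labelled ones. Over both genotypes 1 of the 3, Ighm, rose at 16 h, and all 3 fell from 16 to 48 h (median -1.44). These Ighm calls rest on its brightest probe set. Its other tested probe sets gave 0.05 and -0.04 at 16 h and passed in neither comparison. The summed signal of the 9 on the array was 2483.2 to 14231.2 at 16 h and 1074.4 to 1137.7 at 48 h in wild-type-labelled arrays, and 5285.8 to 11178.7 and 7065.7 to 13434.8 in mutant-labelled ones. Of 7 neutrophil markers 1 fell at 8 h and 1 at 16 h over both genotypes, and at 48 h 3 rose and 1 fell. Of 5 markers of sustentacular (supporting) cells 0 passed at 16 h and 3 rose at 48 h. Of 4 muscle, blood and bone markers 1 fell at 8 h, 0 passed at 16 h and 2 fell at 48 h. Of 7 immature neuron, 3 basal cell and 5 gland and respiratory epithelium markers 0 passed at 16 h over both genotypes. At 48 h 1 of these rose, Icam1 of the basal cell list. Of all probe sets 24.7% passed at 48 h. The part of these cell types in the proteasome changes was not tested.

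Of the wider list of genes that assemble, regulate or feed the proteasome, 29 of 51 were tested. Over both genotypes 3 rose and 1 fell at 8 h, or 13.8% against 2.99% of all probe sets. At 16 h 2 rose and 1 fell (10.3% against 12.3%), and at 48 h 1 rose and 3 fell (13.8% against 24.7%). The medians were 0.04, 0.01 and -0.04. At 16 h Nfe2l2, an oxidative stress factor known to raise some subunits, rose by 0.52 ± 0.17 (adjusted p = 0.0485). Its signal was 5120.1, 6176 and 6429 at 0 h and 7985.5, 7744 and 7661 at 16 h in wild-type-labelled arrays, without overlap, but the 8 h arrays were scattered, at 7935, 9392.5 and 3302.5. Mutant-labelled arrays gave 4488, 5265 and 4323 at 0 h and 6620.1, 8890.5 and 6526 at 16 h, also without overlap. Nfe2l1, the factor known for restoring proteasome levels, did not pass at 16 h on either probe set. Psmg2, a chaperone of 20S assembly, rose by 0.44 ± 0.11 at 16 h (adjusted p = 0.0151). Zfand5, which binds the proteasome, fell at 8, 16 and 48 h by 0.33, 0.32 and 0.44. At 8 h the autophagy receptor Sqstm1 (0.44 ± 0.08, adjusted p = 0.00243), Zfand2a (0.48 ± 0.12) and the proteasome adaptor Ecpas (0.40 ± 0.09) rose.

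Between the genotypes, 17 of 42 members differed over 0, 8, 16 and 48 h, or 40.5%, which is near the 42.6% of all probe sets that differed. Of these 11 were higher and 6 lower in the mutant-labelled arrays, and their direction rests on the labels. Psme1 was higher by 0.43 ± 0.06 (adjusted p = 2.19e-05), Psmb3 by 0.34 ± 0.06, Psmd13 by 0.30 ± 0.07, Psmd4 by 0.28 ± 0.05, Psmb1 by 0.25 on its dimmer probe set and Psma3 by 0.23. The brighter Psmb1 probe set did not pass. The Psma3 difference was 0.06 under quantile normalization (adjusted p = 0.205). Psmb7 was higher by 0.14 ± 0.05, while Psma7, Psmb6, Psmc1, Psmd14 and Psme3 did not pass. Lower were Psmc5 (-0.27 ± 0.07) and Psmb5, by 0.15 ± 0.04 on its main probe set and 0.41 ± 0.09 on the dim one. Psmc3 disagreed with itself, with one probe set 0.25 higher, one 0.15 lower, both past the threshold, and one at -0.06. Psmd11 was lower by 0.54 and 0.20 on its dimmer probe sets and gave -0.06 on its brightest. The lymphocyte and plasma cell markers also differed between genotypes, all 3 tested ones being higher in the mutant-labelled arrays, with summed signals of 1155 to 1719 against 9077 to 17042 at 0 h and Cd3e, Cd3g, Cd3d and Cd8a at the floor in both (Ighm too in the wild-type-labelled ones); their part was not tested.

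**Figure D5:**
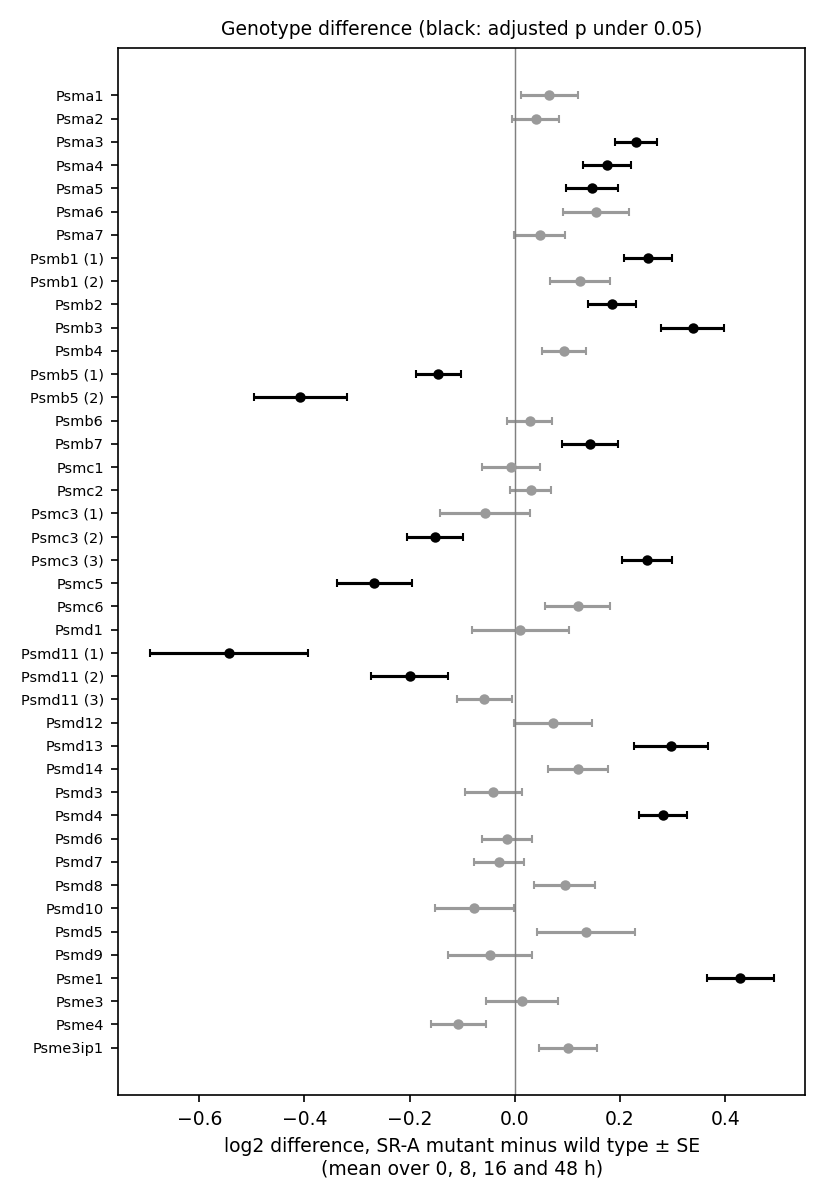
Log2 difference, mutant-labelled minus wild-type-labelled, averaged over 0, 8, 16 and 48 h, ± standard error for each tested member probe set, black where the adjusted p was under 0.05. Psme1, at 0.43, is furthest right, and several probe sets of Psmc3, Psmb5 and Psmd11 differ from each other.

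At single times the genotype difference passed for 8 members at 0 h (6 higher, 2 lower; 23.3% of all probe sets), 0 at 2 h (9.03%), 0 at 8 h (6.85%), 8 at 16 h, all higher (11.2%, 4.85% higher), and 5 at 48 h (2 higher, 3 lower; 20.0%). By limma 4 members at 2 h and 5 at 8 h had an unadjusted p under 0.05. At 0 h Psme1 was 0.51 ± 0.13 higher (adjusted p = 0.00724), Psmd13 0.47 and Psma3 0.31, and under quantile normalization 3 were higher and 2 lower. At 16 h Psmb3 (0.51 ± 0.12, adjusted p = 0.00934), Psmd4 (0.49 ± 0.09, adjusted p = 0.00196), Psmc3 (0.42), Psmb2 (0.39), Psmb7 (0.36) and Psma5 (0.36) were among the 8. At 48 h Psme1 (0.45 ± 0.13) and the dimmer Psmb1 probe set (0.41 ± 0.09) were higher. The brighter Psmb1 probe set did not pass. It read 7515, 8224 and 6877 in wild-type-labelled 48 h arrays and 8489, 6653 and 7022 in mutant-labelled ones, which overlapped. Lower were Psmb5 (-0.35 ± 0.09), a dimmer Psmc3 probe set (-0.36) and the middle Psmd11 probe set (-0.53). The brightest Psmc3 probe set, the one given for 16 h, was at 0.15 at 48 h and did not pass. Nor did the brightest Psmd11 probe set. Leaving out 1 array gave 2 at 2 h without mutant-labelled replicate 2 and 1 without mutant-labelled replicate 3, and 1 at 8 h without wild-type-labelled replicate 3. It gave 3 at 0 h without mutant-labelled replicate 2 and 5 without wild-type-labelled replicate 1 or 3. At 16 h it gave 5 without mutant-labelled replicate 2 or wild-type-labelled replicate 1 or 2, and 4 without mutant-labelled replicate 3 or wild-type-labelled replicate 3. At 48 h it gave 3 without wild-type-labelled replicate 3.

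Whether the change after bulbectomy itself differed between the genotypes was tested over 8, 16 and 48 h together with limma's moderated F test. No member passed, against 5.96% of all probe sets, and 4 had an unadjusted p under 0.05. The smallest adjusted p was that of the middle Psmd11 probe set (0.127), whose change was 0.40 larger at 8 h in the mutant-labelled arrays. Psmd4 followed among genes on their main probe set (adjusted p = 0.177), with a change 0.23 larger at 16 h in the mutant-labelled arrays, and Psmb6 (adjusted p = 0.183), with a change 0.28 smaller at 8 h and 0.30 smaller at 48 h. Without mutant-labelled 48 h replicate 1, 2 members passed, and without wild-type-labelled 8 h replicate 2, 1 did, with the shares of all probe sets not given here. A p above the threshold does not show that the changes were equal.

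Members also varied together within groups, more in some roles than in others. Across the 27 arrays, with each group's mean taken out, the median correlation between pairs of the 36 genes was 0.19 (630 pairs), against -0.00 between all tested probe sets. It was 0.52 in the beta ring (21 pairs, 0.01 to 0.73), 0.33 between the ATPases, 0.23 in the alpha ring and 0.09 among the other 19S subunits. The assembly chaperones gave -0.07 and the activators -0.16, each from 3 pairs, too few to tell whether these roles varied together. Psmc1, Psmb2, Psmb7 and Psmb5 followed the median of the other members most closely, at 0.80, 0.76, 0.75 and 0.72. Psmd3 (-0.32), Psmd9 (-0.20) and Psme1 (-0.13) did not follow it. The genes share the same arrays and their scaling, and these values carry no test. All tested probe sets include many dimmer than the members, whose mean signals had a median of 5419. No correlations between probe sets of similar brightness were taken.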

How the data were processed

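The deposited values were 1 MAS5 signal intensity per probe set and array, on a linear scale, per the submitters' processing notes, with no version of MAS5 given in the sources used here. The 2% trimmed mean lay between 1500.68 and 1500.86 in each array, from which scaling to a common target before deposit was inferred. Of 12488 probe sets, 66 array controls were left out. Signals below 113.7, the 25th percentile, were raised to it before log2, and the 6968 probe sets above the pooled median of 572 in at least 3 arrays were tested, leaving out 5454.

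Group means were fitted in limma 3.58.1 (R 4.3.3) over 27 arrays, or all 30 where the mutant-labelled 2 h arrays were compared, with moderated variances, two-sided tests and Benjamini-Hochberg adjustment over all tested probe sets at 0.05. Per comparison up to 6 rises and 6 falls of members past the threshold were named by the brightest probe set. Psmb5, Psmb6, Psmb7, Psma7, Psmc1, Psmd14, Psme1 and Psme3 were named throughout by the same rule, with up to 4 pathway genes. Every rise at 16 h and some further members were named after their values were seen, and the comparison of 48 h with 16 h and the motif search were added then. Members and lists were chosen with earlier results of these data known. The fit was tested on simulated data. Equal replicate numbers did not pair arrays: the median correlation of deviations was -0.01 over 108 pairs of equal number (-0.35 to 0.35) and 0.00 over 216 others. Other steps used Python 3.11.15 with pandas 2.3.3, numpy 2.4.6 and matplotlib 3.10.9. Alternatives were no filter, a pseudocount of 16, quantile normalization, replicate number as block, robust moderation with a variance trend, all 30 arrays, and each array left out. Member counts under these alternatives are given without the share of all probe sets passing in the same fit.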

Additional observations from a re-analysis of the deposited data

Results flagged for a closer look

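By limma's moderated F test of the genotype difference in change at 8, 16 and 48 h, no constitutive subunit passed. Of the 29 tested genes of the wider proteasome list 3 passed, against 5.96% of all probe sets. Stub1, a ubiquitin ligase that works with chaperones (adjusted p = 0.0205), fell by 0.62 ± 0.12 at 16 h in wild-type-labelled arrays and rose by 0.44 ± 0.12 at 48 h in mutant-labelled ones. The genotypes already differed at 0 h, with 1997, 2424 and 2268 in wild-type-labelled arrays and 1200.5, 1422 and 1408 in mutant-labelled ones. At 48 h Stub1 read 1599.5, 1889.5 and 1862 against 1755, 1828 and 1856. Ubqln2, which carries ubiquitinated proteins to the proteasome (adjusted p = 0.0215), read 2227, 2348.5 and 2390 at 16 h in wild-type-labelled arrays and 1709.6, 1169.8 and 1264 in mutant-labelled ones. Its 0 h signals were 1782, 2169 and 1939 in wild-type-labelled arrays and 2162, 1505 and 1366 in mutant-labelled ones. Usp14, a deubiquitinase bound to the 19S cap (adjusted p = 0.0383), was 0.62 ± 0.08 lower in the mutant-labelled arrays at 0 h and 0.27 ± 0.08 lower at 48 h. All 3 directions rest on the labels.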

How the results depend on the processing

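The 15 rises at 16 h over both genotypes became 14 to 17 under the other analyses of the whole set and 11 to 17 with 1 array left out, all upwards. Quantile normalization gave 1 member for wild type at 2 h, 5 for the genotypes at 0 h and 5 at 16 h. The fit of all 30 arrays gave 2 for wild type at 16 h and 4 for the mutant at 16 h. The variance trend gave 2 for the mutant at 48 h and 1 for the genotypes at 8 h. The cause was not tested. With 1 array left out, wild type gave 0 to 1 at 2 h, 0 to 0 at 8 h, 0 to 3 at 16 h and 1 to 5 at 48 h, and the mutant 0 to 5, 0 to 3, 4 to 6 and 1 to 5. Both together gave 2 to 5 at 8 h, 3 to 5 at 48 h and 9 to 21 for 48 h against 16 h. The genotypes gave 3 to 7 at 0 h, 0 to 2 at 2 h, 0 to 1 at 8 h, 4 to 9 at 16 h, 3 to 5 at 48 h and 15 to 19 over the times, and the test of the difference in change 0 to 2. The replicate number as a block gave 15 at 16 h over both genotypes and moved no count by over 1.5 times. Of 94 calls of single probe sets, 0 reversed in any alternative, and 181 of 1080 values with 1 array left out no longer passed. Of the 15 genes that rose at 16 h, Psmb4 passed in 10 of 18 alternatives, Psma3 and Psme1 in 14, Psmd8 in 17 and the other 11 in all 18.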
